A study of Homo sapiens with 6 samples.

Results

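The change between 4 and 24 h of all-trans retinoic acid (ATRA) was measured in NB4 cells as the log2 level on the array labelled 24 h minus the log2 level on the array labelled 4 h. NB4 is an established human cell line from acute promyelocytic leukaemia, in which the PML gene is fused to RARA. Both cultures received ATRA at 1e-06 M and differed in the time to harvest, so time in ATRA and time in culture cannot be told apart. The series holds 6 Affymetrix arrays, with untreated cells (0 h) and cells taken 4, 12, 24, 48 and 72 h after ATRA, 1 array at each time. No value below has a replicate, and none of the differences carries a test or an error. All probe sets with 1 annotated gene entered, which gave 19775 genes from 41091 probe sets. Each gene was read from its probe set with the highest mean, and 13594 genes whose highest level on any array reached 3.66 on the log2 scale, the median of all values, were kept. The other 6181 genes stayed below that level.

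ATRA is the ligand of the retinoic acid receptors. PML-RARA holds promyelocytes immature by keeping retinoic acid receptor targets silent, and pharmacological ATRA releases this block and degrades the fusion, after which the cells mature toward neutrophils. Genes bound by the receptors answer within hours, while many granule, oxidase, adhesion and chemotaxis genes follow later, once transcription factors made in the first wave have accumulated.

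The arrays at 4 and 24 h had nearly the same level of bioC, a spiked bacterial transcript (7.0 and 7.09, means of 4 probe sets), and their array medians were 3.67 and 3.66. Bacterial and phage controls other than bioC averaged 9.51 and 9.58. The 0 and 12 h arrays differed from these, with bioC at 8.01 and 8.11 and the other controls at 9.10 and 9.18. At 48 and 72 h bioC read 6.88 and 7.17. Comparisons of the 0 or 12 h array with any other time cross this difference, and its part in them was not tested. The 3' minus 5' difference of GAPDH was 0.13 and 0.11 and that of ACTB 0.14 and 0.20, which compares the ends of a transcript as a sign of RNA quality. Signal of 28S ribosomal RNA was higher by 0.76 at 24 h and that of 18S by 0.40. Promyelocyte markers were present at both times, with 8 of 8 markers that have a probe set kept and myeloperoxidase (MPO) at 12.59 and 11.78. CTSG and CEBPA among these 8 were 2-fold or more lower and CSF3R was higher, with a median of -0.23. Of 14 monocyte and macrophage markers 5 were kept, and CD14, MRC1, MSR1, VCAN, LGMN, C1QA, C1QB and C1QC stayed below the filter on all arrays. The 5 kept, CD163, ADGRE1, CD86, CSF1R and MARCO, summed to 77.5 at 4 h and 97.2 at 24 h on the linear scale, and none of them differed 2-fold. The same held for the kept markers of erythroid cells (6), megakaryocytes (6), fibroblasts and epithelium (7), T and NK cells (9) and B cells (4). In bulk RNA, more RNA per cell and more cells of a kind cannot be told apart.

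More genes were higher than lower at 24 h. At 24 h 341 of 13594 genes (2.51%) were higher than at 4 h by 2-fold or more and 129 (0.949%) were lower by as much, so that 72.6% of the genes past 2-fold were higher. The differences of most genes were small: 11865 genes (87.3%) lay within 1.5-fold, the median was -0.04 and the quartiles were -0.26 and 0.19. At 4-fold or more 60 genes were higher and 15 lower, and at 16-fold or more 8 and 2. The split depends on the scaling. Setting the median of all 18 hybridisation controls equal moves every gene up by 0.12 and gives 442 higher and 87 lower genes (83.6% higher), while setting the mean of the controls without bioC equal gives 302 and 166 (64.5% higher). The threshold fell in a dense range, with 1.0012 the smallest difference inside it and 0.9961 the largest outside it among higher genes, and -1.0006 and -0.9938 among lower genes. The 4 h level of 50 of the 341 higher genes lay below 3.66, and so did the 24 h level of 25 of the 129 lower genes. For such genes the low end was raised to 3.66, and the fold is written as at least the resulting value. Counts use the values as deposited, and with both ends raised to 3.66 where below it they were 317 higher and 111 lower.

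**Figure D1:**
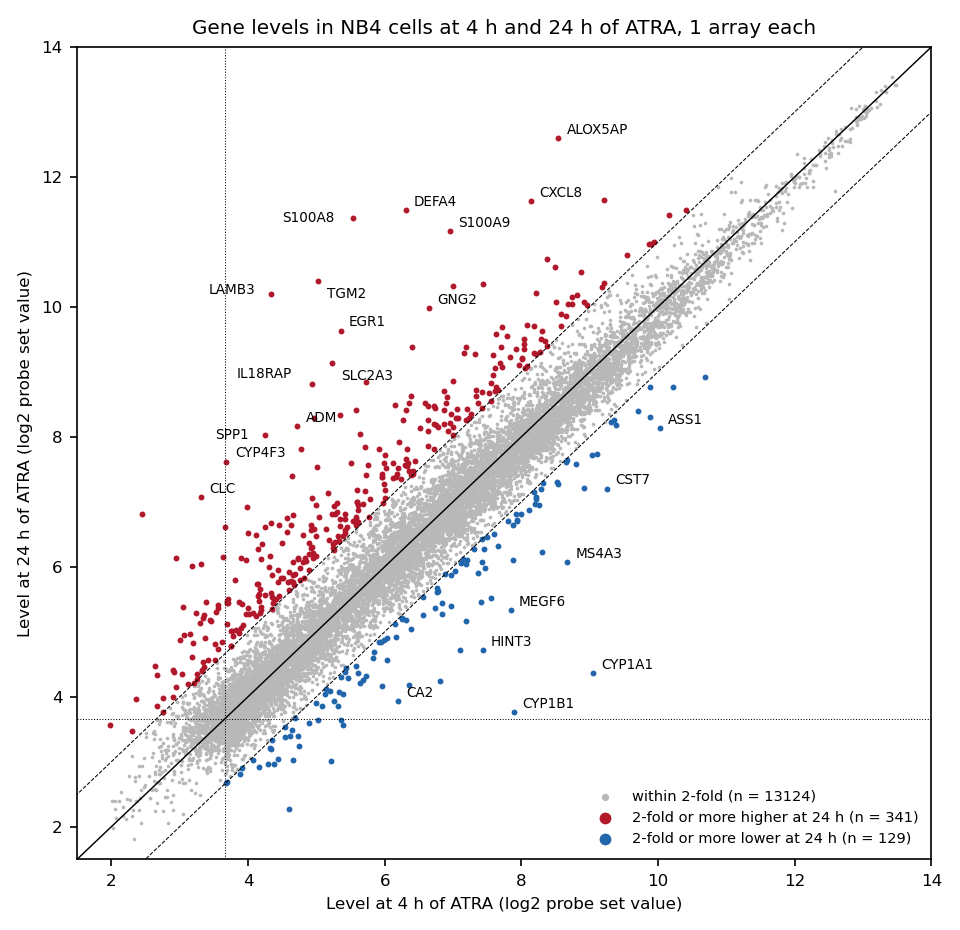
Log2 level of each of 13594 kept genes at 4 h (horizontal axis) and 24 h (vertical axis) of ATRA, 1 point per gene and 1 array per time. The solid line marks equal levels, the dashed lines 2-fold and the dotted lines the filter level of 3.66. The 341 genes 2-fold or more higher (red) reach farther from the diagonal than the 129 lower genes (blue), and LAMB3, S100A8, TGM2 and DEFA4 stand farthest above it.

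LAMB3, S100A8, TGM2 and DEFA4 had the largest differences on the higher side. LAMB3, a chain of the basement membrane protein laminin-332, read 4.37, 4.34, 7.77, 10.19, 9.84 and 10.89 at 0, 4, 12, 24, 48 and 72 h, so it was 57.9-fold higher at 24 h than at 4 h. Its level at 4 h was that of untreated cells, and the step lay between 4 and 24 h. S100A8, a calcium-binding protein that makes up much of the neutrophil cytosol together with S100A9, read 3.90, 5.54, 7.95, 11.37, 12.72 and 13.13 and was 56.8-fold higher. S100A9 read 5.16, 6.95, 9.44, 11.16, 12.02 and 12.61 and was 18.5-fold higher. Both genes were higher on each later array than on the one before it.

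TGM2, a transglutaminase that cross-links proteins and is a known ATRA target in these cells, read 3.70, 5.03, 8.21, 10.40, 12.18 and 12.52 and was 41.3-fold higher at 24 h. All 4 of its kept probe sets were past 2-fold, with differences of 1.31 to 5.37. DEFA4, a defensin of primary granules, read 5.79, 6.31, 9.14, 11.49, 12.15 and 12.19 and was 36.3-fold higher. ALOX5AP, the membrane protein that presents arachidonic acid to 5-lipoxygenase, read 5.50, 8.54, 11.68, 12.59, 13.12 and 13.38 and was 16.6-fold higher, after a first step between 0 and 4 h. CYP4F3, which inactivates leukotriene B4, read 2.17, 3.68, 6.21, 7.62, 8.79 and 9.22 and was 15.3-fold higher. These 4 genes stayed at or above their 24 h level at 48 and 72 h.

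IL18RAP, the accessory chain of the interleukin-18 receptor, was 14.7-fold higher at 24 h (4.93 at 4 h, 8.81 at 24 h) and had its highest level there. SPP1, the secreted phosphoprotein osteopontin, was 13.7-fold higher (4.25 and 8.03) and stood at 10.81 at 72 h. CXCL8, the neutrophil-attracting chemokine interleukin-8, was 11.2-fold higher. It read 8.03, 8.14 and 9.07 at 0, 4 and 12 h and then 11.63, 11.41 and 11.80, so most of its step lay after 12 h. CLC, the Charcot-Leyden crystal galectin of eosinophils and basophils, read 3.11, 3.31 and 3.31 up to 12 h, then 7.08, 10.97 and 11.57, and was at least 10.7-fold higher at 24 h than at 4 h. Other eosinophil and basophil genes did not share this course: PRG2 differed by -0.43, EPX by -0.87 and HDC, which makes histamine, by -1.79, and the 9 markers of that list had a median of -0.12. GNG2, a gamma subunit of heterotrimeric G proteins, was 10.15-fold higher (6.64 and 9.99), in 3 of its 4 kept probe sets.

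EGR1, SLC2A3 and ADM also belonged to the 15 largest higher genes, but their 4 h level was the lowest of the series. EGR1, an immediate early transcription factor, read 6.95 untreated, 5.36 at 4 h and 9.64 at 24 h, a 19.4-fold difference that all 3 of its kept probe sets shared at 2-fold. SLC2A3, a glucose transporter, read 7.68, 5.23 and 9.13 at 0, 4 and 24 h (14.9-fold). ADM, the vasodilator peptide adrenomedullin, read 7.21, 4.72 and 8.16 (10.8-fold). Part of each of these differences is thus the distance from a low 4 h value back to the untreated level. The untreated array had another bioC level than the 4 and 24 h arrays, and its part in these readings was not tested. In all, 22 genes read 2-fold or more lower at 4 h than on each of the other 5 arrays, and 7 read 2-fold or more higher there.

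**Figure D2:**
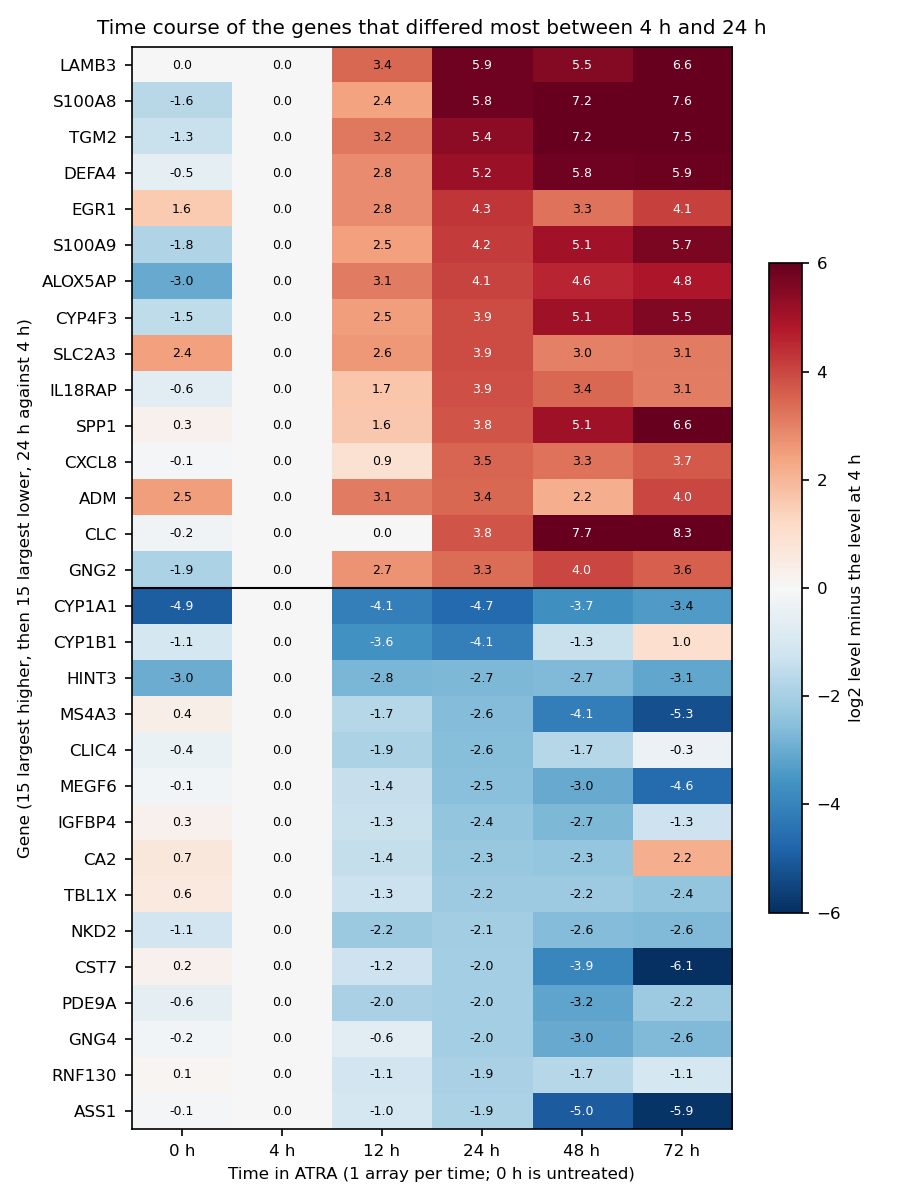
Log2 level of the 15 genes with the largest higher and the 15 with the largest lower values at 24 h against 4 h, shown at each of the 6 times as the difference from the gene's own 4 h level (red higher, blue lower, colours saturate at 6). Each cell is 1 array. S100A8, TGM2 and CLC go on to higher values after 24 h, EGR1, SLC2A3 and ADM are higher at 0 h than at 4 h, and CYP1A1 and HINT3 are lower on every other array than at 4 h.

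The largest lower values belonged to 2 cytochrome P450 genes that answer to the aryl hydrocarbon receptor (AHR), a ligand-activated factor that senses xenobiotics. CYP1A1 read 4.11, 9.04, 4.93, 4.36, 5.35 and 5.66 and was 25.6-fold lower at 24 h than at 4 h. Its 4 h value stood alone among the 6. CYP1B1 read 6.83, 7.89, 4.28, 3.77, 6.56 and 8.89 and was 17.4-fold lower, in 3 of 4 kept probe sets (as below, only kept probe sets are counted), and its level at 24 h was also below that of untreated cells. Of 7 AHR genes kept, 3 were lower and none higher, against 0.949% and 2.51% of all kept genes, with a median of -0.47. The third was NQO1, a quinone reductase, at -1.21. AHR itself differed by 0.55, its repressor AHRR by -0.47, the ADP-ribosyltransferase TIPARP by -0.16 and the aldehyde dehydrogenase ALDH3A1 by -0.15. The 2 CYP1 genes therefore differed more than 4-fold while 4 of the other 5 members stayed within 1.5-fold.

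MS4A3, CST7 and ASS1 were also among the 15 largest lower values. MS4A3, a tetraspan protein of granulocyte progenitors, read 9.02, 8.67, 6.94, 6.07, 4.52 and 3.39 and was 6.06-fold lower at 24 h, in both of its kept probe sets. CST7, the cysteine protease inhibitor cystatin F, read 9.50, 9.25, 8.02, 7.20, 5.32 and 3.12 and was 4.14-fold lower. ASS1, an enzyme of arginine synthesis, read 9.95, 10.02, 8.98, 8.13, 5.03 and 4.14 and was 3.71-fold lower. Each of these 3 genes stayed within 1.5-fold between 0 and 4 h and was lower on every array after 4 h than on the one before.

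CA2, a carbonic anhydrase, had another course: it read 6.85, 6.19, 4.77, 3.93, 3.89 and 8.36, so it was 4.79-fold lower at 24 h and above the untreated level at 72 h. CLIC4, an intracellular chloride channel protein, read 6.43, 6.82, 4.92, 4.24, 5.09 and 6.47 (5.95-fold lower, in 2 of 3 probe sets), and IGFBP4, which binds insulin-like growth factors, was 5.23-fold lower (7.10 and 4.72). HINT3 read 7.43 at 4 h and between 4.31 and 4.78 on the other 5 arrays. Only 1 of its 2 kept probe sets was past 2-fold. MEGF6 (5.72-fold, 1 of 2 probe sets), TBL1X, a subunit of corepressor complexes (4.51-fold, 2 of 4), NKD2, an antagonist of WNT signalling (4.20-fold), the phosphodiesterase PDE9A (4.10-fold), the G protein subunit GNG4 (4.08-fold, 3 of 3) and the ubiquitin ligase RNF130 (3.86-fold, 1 of 4) made up the rest.

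Genes of the retinoid response differed unevenly between 4 and 24 h. Of 17 kept, 7 were 2-fold or more higher and none lower, 4 had a negative difference, and the median was 0.84 against -0.04 over all genes. Over all kept genes 2.51% were higher and 0.949% lower, and these shares stand beside the counts of each list below. In lists as short as these, finding none lower or none higher lies near those shares. Besides TGM2, the phospholipase PLAAT4 was higher by 2.34 (4.33 and 6.67) and the retinol dehydrogenase DHRS9 by 2.12 (8.49 and 10.61). DHRS3, which reduces retinal to retinol, was higher by 1.22 and stood at its 24 h level or above at 12 h (8.95 and 8.43). CYP26B1, which degrades retinoic acid, was higher by 1.21, ANGPTL4, an inhibitor of lipoprotein lipase, by 1.06, and CD38, an ectoenzyme that consumes NAD, by 1.0. The classical direct target CYP26A1 differed by 0.27 and its level was low throughout, 3.50 to 4.94. RARA, the receptor gene, read 5.85, 6.72, 6.05 and 5.92 at 0, 4, 12 and 24 h and differed by -0.80. With the 12 h array in place of 4 h the list's median was 0.06.

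Myeloid transcription factors went both ways, with 4 of 21 higher and 3 lower. EGR1 was joined by ID2, an dominant-negative partner of helix-loop-helix factors (higher by 1.70), CEBPD (1.37) and MYB (1.15). CEBPD read 9.20, 7.71 and 9.08 at 0, 4 and 24 h and MYB, a factor of immature blood cells, 10.94, 8.92 and 10.07, so at 24 h neither was above the untreated level. CEBPA, needed to enter the granulocyte lineage, was lower (10.21 at 4 h, 9.63 at 12 h and 8.77 at 24 h, a difference of -1.44). SPIB, an ETS factor, differed by -1.47. ZBTB16, the zinc finger gene PLZF, read 4.66 at 4 h and 3.02 at 24 h, below the filter, and with that end raised to 3.66 it no longer passed 2-fold. CEBPB, a factor of granulocyte maturation, read 8.78 untreated and 11.90, 11.89 and 11.74 at 4, 12 and 24 h, and CEBPE, needed for late granulocyte maturation, read 8.19, 9.68, 9.94 and 10.28. CEBPB and CEBPE thus differed by -0.17 and 0.60 between 4 and 24 h. Of 16 immediate early genes 4 were higher and none lower (median 0.44): EGR1, JUN (4.93 and 7.06), FOS (3.56 and 5.36) and EGR3 (3.51 and 4.56). FOS and EGR3 started below the filter, so FOS was at least 3.24-fold higher, while EGR3 was at least 1.86-fold higher and no longer passed 2-fold.

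The calgranulins S100A8 and S100A9, but not S100A12, passed 2-fold, and no other member of their list did. Of 10 S100 genes kept, S100A8 and S100A9 were higher and none was lower. S100P differed by 0.66, S100B by 0.47, S100A12 by 0.42, S100A11 by 0.18, S100A4 by -0.18, S100A6 by -0.44, S100A10 by -0.50 and S100A13 by -0.55. S100A12, the third calgranulin, read 2.84, 2.92, 2.90 and 3.34 up to 24 h, below the filter, and 7.03 and 10.29 at 48 and 72 h. At 24 h S100A12 was thus still below the filter.

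Promoters of S100A8, S100A9 and ALOX5AP are shown because each holds the purine-rich core GAGGAA, bound by the myeloid factor PU.1, on either strand. This core was more frequent among higher than among lower genes. CXCL8, ADM and CLC held it too in the corresponding bases before the start, while CYP4F3 and GNG2 did not. No match was listed for the others of the 15 largest higher genes, LAMB3, TGM2, DEFA4, EGR1, SLC2A3, IL18RAP and SPP1. For these a match, a promoter sequence or a search of the gene was lacking. The promoters shown were thus picked for a match and do not tell how common it is among genes that differed strongly. The bases are those before the gene start in RefSeq on GRCh38.p14, 5′ to 3′ on the gene's strand, and capitals mark GAGGAA or its reverse complement. S100A8 lies on the minus strand (chr1:153391189-153391438), and S100A9 (chr1:153357604-153357853) and ALOX5AP (chr13:30713235-30713484) lie on the plus strand.
S100A8: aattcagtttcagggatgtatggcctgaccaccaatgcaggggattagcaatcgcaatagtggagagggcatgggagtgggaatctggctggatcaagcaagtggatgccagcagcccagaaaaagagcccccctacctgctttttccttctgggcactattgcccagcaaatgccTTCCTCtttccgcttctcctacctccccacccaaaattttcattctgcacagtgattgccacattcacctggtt
S100A9: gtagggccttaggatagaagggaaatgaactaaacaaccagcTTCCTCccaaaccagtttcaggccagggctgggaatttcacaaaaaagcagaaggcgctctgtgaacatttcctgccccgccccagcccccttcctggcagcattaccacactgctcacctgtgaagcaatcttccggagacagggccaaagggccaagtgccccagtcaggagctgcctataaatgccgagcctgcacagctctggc
ALOX5AP: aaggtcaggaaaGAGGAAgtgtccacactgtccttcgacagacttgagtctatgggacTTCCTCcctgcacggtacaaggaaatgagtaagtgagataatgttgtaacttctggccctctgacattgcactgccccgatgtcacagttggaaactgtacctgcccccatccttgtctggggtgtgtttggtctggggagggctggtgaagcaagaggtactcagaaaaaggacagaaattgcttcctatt
The match lies 74 bases before the start in S100A8 and 208 bases before it in S100A9. ALOX5AP holds 2 matches, 238 and 192 bases before the start.

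The core was searched on both strands in the 250 bases before to 50 bases after each start, over 27305 RefSeq promoters, of which 10864 belonged to kept genes. It was present in 36.0% of 272 higher genes (98), in 17.8% of 101 lower genes (18), in 27.5% of kept genes and in 27.6% of all promoters. Core sites of interferon-stimulated response elements were present in 7.35% of higher genes, 2.97% of lower genes, 2.79% of kept genes and 3.65% of all promoters. The AP-1 site TGANTCA was present in 6.99%, 2.97%, 5.06% and 7.76% of these sets, the C/EBP core TTGCNNAA in 7.35%, 4.95%, 7.33% and 10.6%, the E-box CACGTG in 8.82%, 11.9%, 10.0% and 7.43%, and the retinoid receptor hexamer AGGTCA in 12.9%, 8.91%, 10.4% and 13.9%. NF-kappaB sites were found in 3 of the 272 higher genes and in none of the 101 lower genes, against 0.56% of kept genes and 0.58% of all promoters. Matches were counted for each motif on its own, so 1 stretch can count for several. They describe letters in a window, and binding was not measured.

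Genes of the primary granule list went both ways. Of 12 kept, 3 were 2-fold or more lower and DEFA4 was higher, with a median of -0.68 against -0.04 over all genes. The 3 include MS4A3, described above as a tetraspan protein of progenitors, and the protease inhibitor CST7, so the list is wider than the contents of the granule. The third, the granule protease cathepsin G (CTSG), was lower by 1.13 (6.03 at 4 h and 4.91 at 24 h). Lysozyme (LYZ) differed by -0.95, the ribonuclease RNASE2 by -0.93, MPO by -0.82 and azurocidin (AZU1) by -0.54, while proteinase 3 (PRTN3) differed by 0.41. The granule proteoglycan SRGN, the protease CTSC and complement factor D (CFD) differed by 0.15, 0.13 and 0.05. Elastase, ELANE, stayed below the filter. Of 14 secondary and tertiary granule genes kept, which neutrophils make later in maturation, none was higher and the gelatinase MMP9 was lower by 1.09 (7.60 and 6.51). LTF, MMP8, ARG1, TCN1 and CRISP3 were at or below 3.49 at 24 h, under the filter, and LCN2, OLFM4, CEACAM8, PTX3 and ABCA13 were below it on all arrays. No gene of the late granule list was thus among the 341 higher genes. Over all kept genes 2.51% were higher, so 0 of 14 lies near that share.

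The NADPH oxidase makes superoxide in neutrophils. Of its 5 subunits with a value, CYBB, the catalytic membrane subunit, was higher by 2.92 (7.43 at 4 h, 9.12 at 12 h and 10.35 at 24 h), in both of its kept probe sets, while it had read 7.27 untreated. The cytosolic organiser NCF1 was higher by 2.43 (9.21 and 11.64) after a step between 0 and 4 h (5.45 untreated). Its probe set may also read near-identical pseudogenes. CYBA, the partner of CYBB in the membrane, differed by 0.73, the GTPase RAC2 by 0.53 and the cytosolic subunit NCF4 by 0.35. Each of the 5 differences was positive and 2 passed 2-fold.

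Genes that make lipid mediators included several of the higher genes. Of 15 listed genes of eicosanoid synthesis 9 were kept, and 6 of these were higher and none lower, with a median of 1.73. PTGS2, HPGD, HPGDS, PLA2G7, ALOX15 and ALOX12 were below the filter, and over all 15 the median was 0.17. Besides ALOX5AP and CYP4F3, the prostaglandin E synthase PTGES was higher by 1.96 (4.56 and 6.53), the cyclooxygenase PTGS1 by 1.90 (5.92 and 7.82), the phospholipase PLA2G4A, which frees arachidonic acid, by 1.73 (5.04 and 6.77) and the thromboxane synthase TBXAS1 by 1.22 (6.16 and 7.38). PLA2G4A had read 6.82 untreated, so its 24 h level equalled that of untreated cells within 1.5-fold. ALOX5, the lipoxygenase that ALOX5AP serves, read 3.67, 3.72, 3.81, 3.90, 3.63 and 3.35, near the filter on all arrays, and its own difference was 0.17. The hydrolase LTA4H and the synthase LTC4S, which make leukotrienes B4 and C4, differed by -0.19 and -0.15.

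Adhesion genes and surface receptors of neutrophils were higher in part. Of 15 adhesion and integrin genes kept, 7 were higher and none lower, with a median of 0.73. The integrin chain ITGAM (CD11b) was higher by 2.16 (6.35 and 8.52) in the probe set used, while its other kept probe set differed by 0.05. Its partner ITGB2 was higher by 1.41 (8.75 and 10.16), the selectin ligand SELPLG by 1.70, ICAM1 by 1.47, ICAM3 by 1.25 and ITGAX (CD11c) by 1.11. CEACAM1, another adhesion receptor, started below the filter (3.38 and 5.46) and was at least 3.47-fold higher. ITGAL, the alpha chain of LFA-1, differed by -0.63. With the 12 h array in place of 4 h the list's median was -0.01.

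Of 29 neutrophil receptors kept, 11 were higher (37.9%, against 2.51% of all kept genes), with a median of 0.32. None was lower, which lies near the 0.949% over all kept genes. TNFRSF1B, the second TNF receptor, differed most (3.98 at 4 h, 5.91 at 12 h and 6.93 at 24 h, a difference of 2.95). The complement receptor CR1 was higher by 1.69, the adaptor TYROBP by 1.63, the interleukin-8 receptor CXCR2 by 1.53, the shared cytokine receptor chain CSF2RB by 1.48, LILRA2 by 1.31, the platelet-activating factor receptor PTAFR by 1.29, CXCR4 by 1.20, the G-CSF receptor CSF3R by 1.14, LILRB2 by 1.11 and the leukotriene B4 receptor LTB4R by 1.06. FPR1, C5AR1 and FCGR3B, receptors of formyl peptides, C5a and antibody, differed by -0.16, -0.10 and 0.03. Probe sets of LILRA2 and LILRB2 may read related family members.

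**Figure D3:**
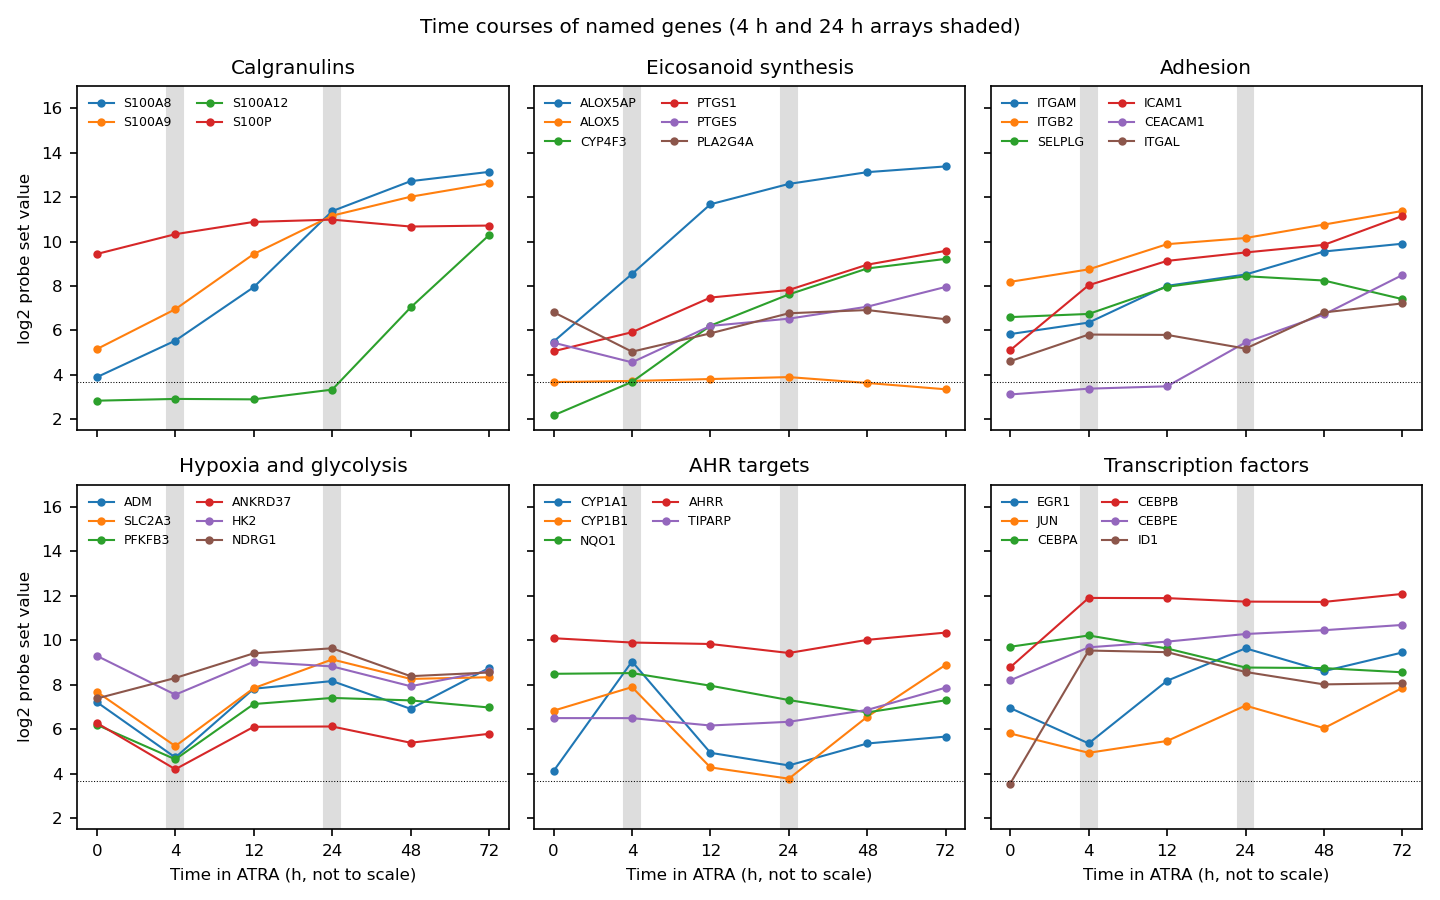
Log2 level of named genes at the 6 times in ATRA (horizontal axis in hours, not to scale), in panels by gene group, with the 4 h and 24 h arrays shaded and the filter level dotted. Each point is 1 array. Calgranulins S100A8 and S100A9 are higher on each later array while S100A12 stays below the filter up to 24 h, hypoxia genes such as ADM and SLC2A3 have a low point at 4 h, and CYP1A1 has a high point there.

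Signalling genes included several of the larger differences. PADI4, which citrullinates histones when neutrophils release chromatin, was higher by 3.12 (5.72 and 8.84), in 2 of 3 probe sets, and PADI2 by 1.85 (7.01 and 8.86), while GSDMD, a pore-forming protein, and HMGB1, a chromatin protein, differed by 0.43 and -0.11. Of 15 SRC-family and related kinases 3 were higher and none lower: FGR by 2.01 (3.95 untreated, 8.21 at 4 h, 10.21 at 24 h), PIK3CG, the G-protein-coupled phosphoinositide kinase, by 1.95 and its regulatory partner PIK3R5 by 1.4. Of 24 actin and motility genes LSP1, an actin-binding protein of leukocytes, was higher by 3.04 (4.77 and 7.81) and PLEK, the platelet kinase substrate pleckstrin, by 1.30, while the intermediate filament gene VIM was lower (10.69 and 8.92, a difference of -1.76).

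Of 19 inflammatory cytokines and chemokines kept, 5 were higher and none lower, with a median of 0.43. Besides CXCL8, CXCL10 read 3.59, 2.94 and 3.17 up to 12 h and 6.13 at 24 h, so it was at least 5.54-fold higher. CCL23 was higher by 2.37, CCL20 by 1.55 and CCL2 by 1.15 (3.93 untreated, 9.21 at 4 h and 10.36 at 24 h). Of 13 NF-kappaB pathway genes NFKBIZ, a nuclear coactivator, was higher by 2.08, and the list's median was -0.01. Of 26 interferon-stimulated genes IFI35 (1.24) and IFI6 (1.05) were higher and HERC5, a ligase of the ISG15 system, was at least 3.23-fold lower (5.35 and 3.64). HERC5 then read 7.92 at 48 h and 11.05 at 72 h. The interferon list's median was 0.14. Of 11 antigen processing genes 5 were higher and none lower, with a median of 0.78. The immunoproteasome subunit PSMB9 read 4.23, 5.64, 7.09 and 8.04 at 0, 4, 12 and 24 h (higher by 2.40 than at 4 h), PSMB8 was higher by 1.10, the peptide transporters TAP2 and TAP1 by 1.58 and 1.32, and the peptide-trimming enzyme ERAP2 by 1.27.

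Of 19 apoptosis regulators, the survival gene BCL2A1 was higher by 3.33 (4.30 untreated, 7.0 at 4 h, 9.38 at 12 h and 10.33 at 24 h) and CASP1, which cleaves interleukin-1, by 1.11. The death receptor FAS started below the filter (3.38 and 4.90) and was at least 2.35-fold higher. Of 22 lysosome and autophagy genes GRN (1.67) and CTSD (1.27) were higher and CTSH was lower by 1.32. Cell division genes of the lists stayed within 2-fold. None of 26 DNA replication genes and none of 22 mitosis genes passed 2-fold, and their medians were -0.27 and -0.17, with 23 of the 26 replication genes below 0. The median over all kept genes was itself -0.04 and moves with the scaling, so the count below 0 is a description only. None of 18 MYC and ribosome biogenesis genes passed 2-fold either, and MYC read 11.77, 10.69, 11.19 and 11.29 at 0, 4, 12 and 24 h. Over all kept genes 2.51% were higher and 0.949% lower, so finding none in lists of this size lies near that share. Outside these lists, the cyclin genes CCNE2 (-1.10) and CCND1 (2.15) did pass 2-fold. Of 11 cell cycle inhibitors BTG1 was higher by 1.4 and TOB1 lower by 1.09.

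Metabolic genes separated. Of 23 hypoxia and glycolysis genes 6 were higher and none lower (median 0.32): SLC2A3, ADM, PFKFB3, which makes the activator of phosphofructokinase (higher by 2.76), ANKRD37 (1.92), NDRG1 (1.33) and the hexokinase HK2 (1.27). PFKFB3, ANKRD37 and HK2 read 6.19, 6.27 and 9.30 untreated and 4.64, 4.19 and 7.55 at 4 h, so they shared the low 4 h value of SLC2A3 and ADM. NDRG1 did not, at 7.38 untreated and 8.30 at 4 h. The glycolytic enzymes ALDOA, TPI1, GAPDH, PGK1, ENO1 and LDHA differed by 0.05, 0.12, -0.06, -0.07, 0.06 and -0.22. Of 20 ER stress and amino acid response genes none was higher and 2 were lower, the asparagine synthetase ASNS by 1.31 and the serine synthesis enzyme PHGDH by 1.22, and the list's median was -0.50. ASNS read 8.26, 6.59 and 6.94 at 4, 12 and 24 h, so it was lowest at 12 h among these 3, and with the 12 h array in place of 4 h the list's median was 0.21. Of 16 cholesterol synthesis genes INSIG1 (1.53) and MSMO1 (1.37) were higher, and the untreated level of both (10.05 and 8.82) was within 1.5-fold of that at 24 h. TGIF1, a SMAD corepressor that read 5.95 untreated, 3.71 at 4 h and 5.50 at 24 h, was the 1 gene of 11 in the SMAD and TGF-beta list past 2-fold.

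**Figure D4:**
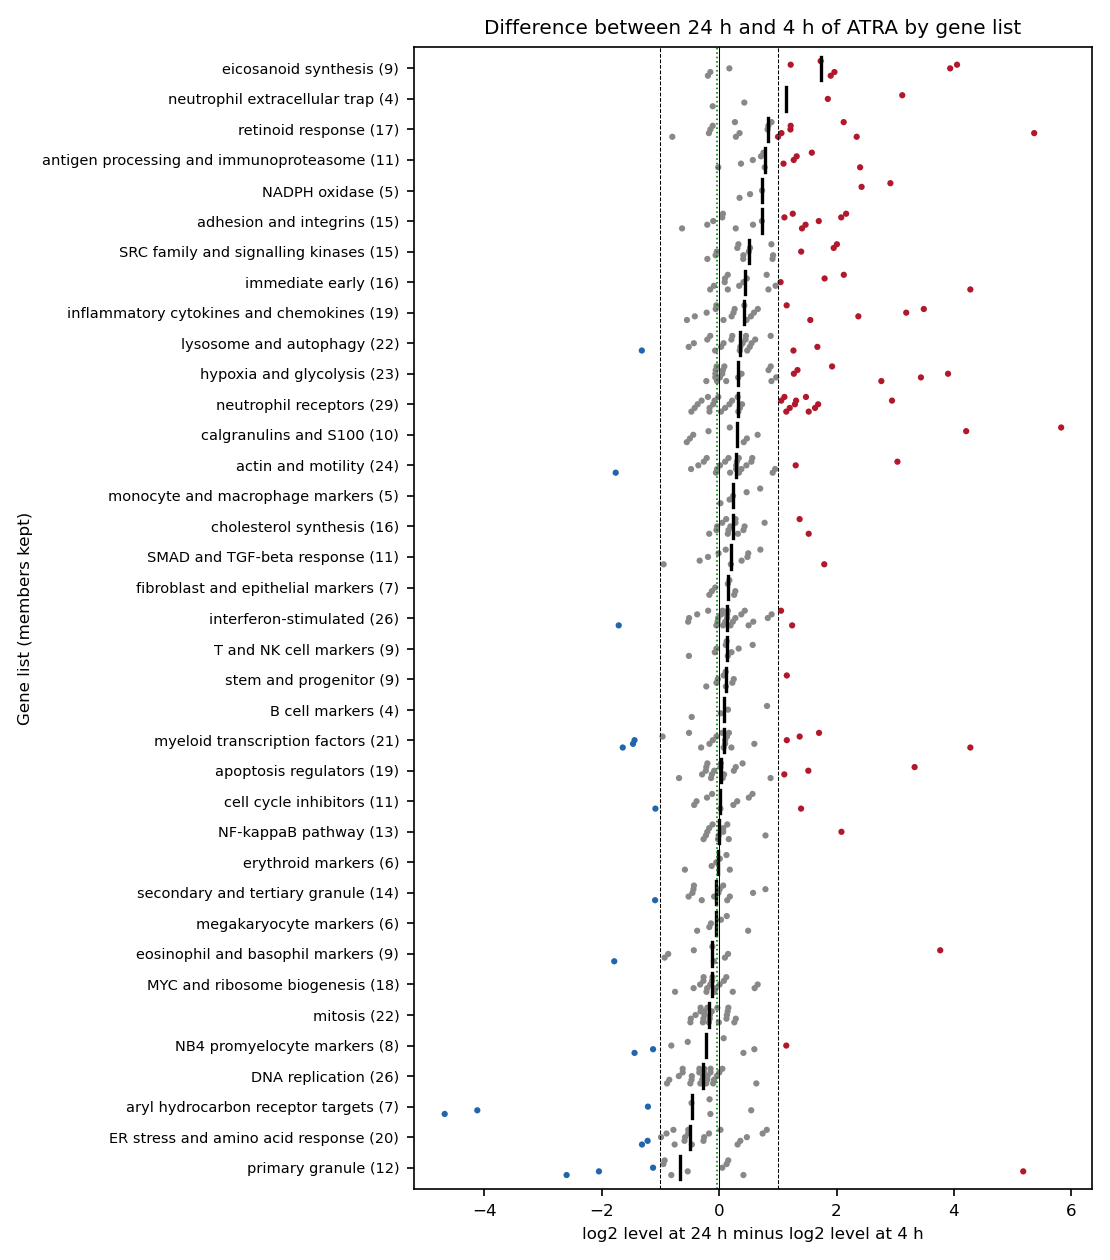
Difference between 24 h and 4 h on the log2 scale for each kept member of the gene lists (1 point per gene, red or blue past 2-fold), ordered by the list's median (black bar), with the number of kept members in brackets. Dashed lines mark 2-fold and the green dotted line the median of all genes, -0.04. Eicosanoid synthesis (median 1.73 over 9) stands at the top and primary granule genes (median -0.68 over 12) at the bottom, and the lists of markers of other cell types lie near 0.

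The 12 h level of the genes past 2-fold was set beside their 4 h and 24 h levels. These genes were chosen for a wide distance between those 2 arrays, so a 12 h level between them is favoured by the choice. No share over all kept genes was computed, and the counts are a description only. The 12 h level lay between the 4 h and 24 h levels in 303 of the 341 higher genes and in 106 of the 129 lower genes, and beyond the 24 h level in 23 and 20. The median level of the higher genes was 5.45, 5.33, 6.25, 6.93, 7.52 and 8.04 over the 6 times, where the 4 h and 24 h values are those that chose the genes. That of the lower genes was 6.39, 6.76, 5.72, 5.20, 5.19 and 5.17, so the median of the lower genes was nearly level from 24 h on, while that of the higher genes was higher on each later array.

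The 341 and 129 genes were also read in pairs of arrays that use neither the 4 h nor the 24 h array and share 1 bioC level within the pair. From 0 to 12 h 313 genes (2.3%) were higher by at least 2-fold and 263 (1.93%) lower. These included 132 of the 341 genes higher at 24 h than at 4 h (38.7% of the 341 and 42.2% of the 313), and 42 of the 129 lower genes (32.6% of the 129 and 16% of the 263). Calls in the opposite direction were 8 of the 341 and 1 of the 129. The 12 h array had an 18S ribosomal RNA signal of 8.63 against 5.20 to 5.88 on the other 5 arrays, and its part in these counts was not tested. TGM2 and S100A9 were higher at 12 h than untreated by 4.51 and 4.28, CYP1B1 was lower by 2.55, and SLC2A3, ADM and CLC differed by 0.17, 0.60 and 0.20.

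From 48 to 72 h 644 genes (4.74%) were higher by at least 2-fold and 291 (2.14%) lower. They included 88 of the 341 higher genes (25.8% of the 341 and 13.7% of the 644) and 9 of the 129 lower genes, while 13 of the 129 were higher at 72 h. CA2 and CYP1B1 were among these 13, with 3.89 and 8.36 at 48 and 72 h for CA2 and 6.56 and 8.89 for CYP1B1. The median difference between 48 and 72 h was 0.43 for the 341 higher genes, -0.01 for the 129 lower genes and -0.05 for all genes.

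**Figure D5:**
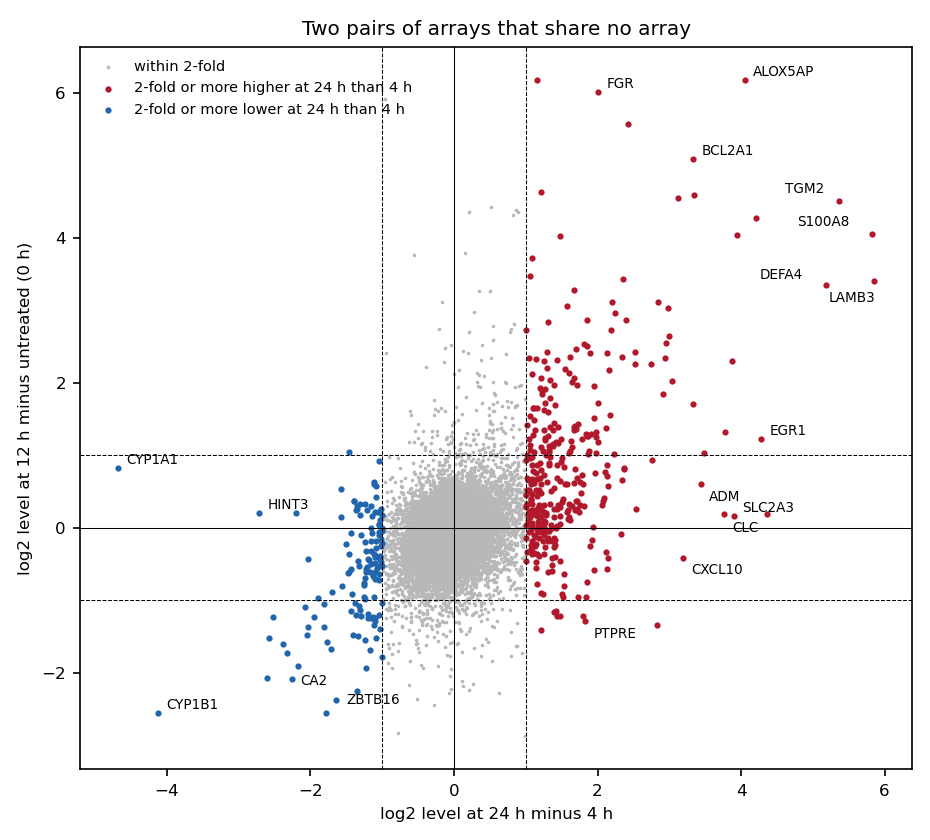
Difference between 24 h and 4 h (horizontal axis, log2) against the difference between 12 h and untreated cells (vertical axis, log2) for each kept gene. The pairs share no array, and dashed lines mark 2-fold. Of the 341 genes higher at 24 h (red) 132 lie above the upper dashed line, TGM2, S100A8 and ALOX5AP among them, while SLC2A3, ADM and CLC lie below it.

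Probe sets of 1 gene did not always agree. Of the 189 higher genes with several kept probe sets, all probe sets passed 2-fold in 56 and all had a positive difference in 155. Of the 52 lower genes with several, all passed it in 7 and all were negative in 40. No gene had probe sets past 2-fold in both directions. Where no count is given with a gene above, agreement of its probe sets is not implied. Examples are HK2 (past 2-fold in 1 of 3), TAP2 (1 of 4), PIK3R5, TGIF1 and CYP26B1 (1 of 2 each) and CEACAM1 (3 of 5). With the mean of a gene's probe sets, 229 genes were higher and 81 lower.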

How the data were processed

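Total RNA of NB4 cells was hybridised to 6 arrays, 1 per time. The authors deposited log2 probe set values, and RMA is named per the submitters' processing notes. Its version and a genome build were not given in the sources used. RMA forces 1 distribution on all arrays, so a joint shift of most genes would not show. Precision is limited by the number of arrays.

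The platform annotation gave 1 gene to 41097 of 54675 probe sets, several to 1801 and none to 11777. Of 62 control probe sets 6 had 1 annotated gene. Leaving these 6 out left 41091, and 41037 symbols were matched to GRCh38.p14 names. Of 13594 kept genes, 10864 had a RefSeq promoter. Differences were computed with Python 3.11.15, pandas 2.3.3 and numpy 2.4.6, and cyclic loess with limma 3.58.1 in R 4.3.3. The counting was tested on simulated data.

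The members and gene lists were chosen with earlier results of these data known. Genes were named by rule: the 15 largest higher and lower differences, up to 4 members per list, members past 2-fold, all members of lists of 12 or fewer genes, and 10 set genes (S100A8, S100A9, CYP26A1, RARA, MYC, CEBPE, MPO, ITGAM, CD38 and TGM2). Other genes, the list members within 2-fold or below the filter among them, were chosen after their values were seen. Alternatives covered the probe set per gene, filters, scaling, fold threshold and neighbouring arrays.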

Additional observations from a re-analysis of the deposited data

How the results depend on the processing

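No paired analysis was possible because each time has 1 array and there are no replicates. With the mean of all probe sets of a gene 229 genes were higher and 81 lower. At a 1.5-fold threshold 948 genes were higher and 781 lower, and at 4-fold 60 and 15. With the 12 h array, which had another bioC level than the 24 h array, in place of 4 h they were 115 and 33. Under the other alternatives the counts ran from 302 to 494 higher and from 87 to 166 lower. Of 111 named genes past 2-fold, 22 passed it under each alternative, and with 12 h in place of 4 h 84 did not. With that array HINT3 (0.042), NKD2 (0.16), TOB1 (0.056), ASNS (0.35), DHRS3 (-0.53), MYB (-0.10), CXCR4 (-0.062), LTB4R (-0.085), ITGAX (-0.058) and HK2 (-0.21) changed sign, and HERC5 (0.43) did with the mean of 24 and 48 h. List medians near 0 changed sign with the scaling for apoptosis, cell cycle inhibitor, NF-kappaB, late granule, erythroid and megakaryocyte lists. Values near 3.66 lie in the lower part of the signal range, which limits genes such as ALOX5, S100A12, CLC and CYP4F3 at 4 h. The fold of CYP4F3 starts from 3.68.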

Other observations

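Genes outside the lists, chosen after their values were seen, also differed strongly. CYTIP, a regulator of leukocyte adhesion, read 2.91, 2.45 and 3.11 up to 12 h and 6.81 at 24 h, and was at least 8.86-fold higher at 24 h than at 4 h. TGM3, another transglutaminase, was 10.1-fold higher (4.96 and 8.29), just below the range of the 15 largest. EPAS1, which encodes HIF-2 alpha, was higher by 3.0 (5.35 and 8.34) and the inhibitory receptor CD300A by 2.99, in both kept probe sets, while the activation marker CD69 started below the filter (3.18 and 6.01) and was at least 5.10-fold higher. FBP1, an enzyme of gluconeogenesis, was higher by 2.84 and the hexokinase HK3 by 2.18. Genes with their lowest level at 4 h, 2-fold or more below each other array, included the D cyclin CCND1 (5.48 untreated, 4.20 at 4 h, 6.35 at 24 h), the ETS factor FLI1 (8.25, 6.95 and 8.21), the oxygen-sensing hydroxylase EGLN1 (7.70, 6.21 and 7.92), CITED2 (8.59, 7.04 and 8.29) and the nuclear RNA MALAT1 (9.10, 7.42 and 8.44). From 4 to 24 h CCND1 passed 2-fold in 2 of 2 kept probe sets, EGLN1 in 2 of 3 and FLI1 in 1 of 3. MALAT1 passed it in 2 of 12, and CITED2 in 2 of 3 with the lowest at -0.38.

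In large gene families the counts stand beside 2.51% higher and 0.949% lower over all kept genes. None of 58 cytosolic ribosomal proteins, 32 subunits of respiratory chain complex I, 30 proteasome subunits or 22 canonical histones differed 2-fold, and of 75 mitochondrial ribosomal proteins MRPS6 was higher by 1.32. Of 250 solute carriers 10 were higher (4.0%) and 2 lower (0.80%). After SLC2A3 the choline transporter SLC44A1 had the largest difference (1.96), and the amino acid transporter SLC7A5 was lower by 1.09. Of 322 zinc finger genes of the ZNF family 1 was higher (0.311%) and 4 were lower (1.24%). Of 894 long noncoding RNA genes 13 were higher (1.45%) and 3 lower (0.336%), among them OLMALINC (2.37), LINC00847 (1.52) and LINC02204 (-1.41). Of 4302 kept probe sets with no annotated gene 84 were higher and 38 lower, 1.95% and 0.883%.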
